A study of Xenopus laevis with 18 samples.

Results

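Among genes of the frog Xenopus laevis with probe sets named for each of 2 copies, 222 had copies that took unlike courses between early gastrula and early neurula. X. laevis is allotetraploid, and many of its genes persist as a pair of homeologs, one on the long (L) and one on the short (S) chromosome of each homologous set, written here as liph.L and liph.S. The genes were chosen by the changes in water-injected embryos. Each copy was represented by its probe set of highest mean over the 18 arrays of both treatments, both means had to be at least 5 on the log2 scale, and the change of a copy was its early neurula mean minus its early gastrula mean. A gene was kept where the changes of the L and S copies in water embryos differed by 2 or more. Of 1589 genes with a probe set for each copy, 1350 passed the minimum mean and 239 did not, and 222 of the 1350 (16.4%) met the rule, with 1 probe set for each of their 444 copies. The water changes are therefore given below as a description, without a test.

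The embryos came from 6 groups of 3 arrays each. Gam1 embryos had received 0.5 ng of mRNA for Gam1 at the one-cell stage, and control embryos had received water. Gam1 is an adenoviral protein that causes the SUMO-activating E1 enzyme to be destroyed, which lowers the conjugation of proteins to SUMO. Both treatments were sampled at 9 hours after fertilization (early gastrula), 13.5 hours (late gastrula) and 16.5 hours (early neurula), as pools of 20 whole embryos, and the biological replicates were different egg clutches. Because no RNA went into the controls, the effect of Gam1 and that of any injected RNA cannot be told apart. In whole embryos, fewer cells of a type and less RNA per cell cannot be told apart either.

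An early frog embryo lives on RNA that the mother stored in the egg. Zygotic transcription begins at the midblastula transition, and maternal transcripts are cleared while genes of the germ layers, the neural plate and the epidermis are switched on. Signals of stored transcripts therefore tend to fall over gastrulation and those of newly transcribed genes to rise. X. laevis arose when the genomes of a pair of ancestral frog species were joined, and its homeologs are known to differ in many cases in when and where they are expressed. A probe set is a group of short oligonucleotides on the array. Its signal depends on how well those oligonucleotides bind, so levels of the L and S copies were not set against each other here, and only their changes were. The naming of a probe set for the L or S copy rests on the platform annotation. Whether each probe set binds only its own copy was not checked.

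All arrays shared a median of 7.72 and a range of 2.07 to 16.13 on the log2 scale, on which a difference of 1 is a 2-fold difference. Markers of neural plate, epidermis, mesoderm, endoderm, organizer and the maternal germ line were all present, with a highest group mean over 7 for 30 of their 31 probe sets. Of blood and adult markers, which these stages should lack, only hbg1.L, a blood globin, was measured here. It had 1 probe set, whose name ends in _x_at, a mark of possible binding to several transcripts. Whether its signal came from hbg1.L was not tested, and its values by replicate are not given here. Its group means were 2.07, 4.92 and 7.23 in Gam1 embryos over the 3 stages, early gastrula first, against 2.07, 2.12 and 2.16 in water embryos, and its part in the results below was not tested.

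The 222 genes divided into 5 classes by whether each copy changed in water embryos by at least 1 log2 unit, which is an arbitrary step used only to describe them. In 30 genes the copies went in opposite directions. In 68 only one copy went up by that much, and in 69 only one went down. Both copies went up by unlike amounts in 31 genes, and both went down by unlike amounts in 24. The median difference between copies was 4.125 log2 units in the opposite class, 2.71 where one copy went up, 2.57 where one went down, 2.83 where both went up and 2.47 where both went down. The L copy had the more positive change in 121 genes and the S copy in 101. Among all 1350 genes the median difference was 0.827 in water embryos. Just inside the threshold lay ift20, insig1 and dpp3, with differences of 2.0029, 2.0092 and 2.0118, and just outside it rbm12b.3, tubb4b and psma1, with 1.9969, 1.9914 and 1.9895, so the rule divides a continuous range.

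**Figure D1:**
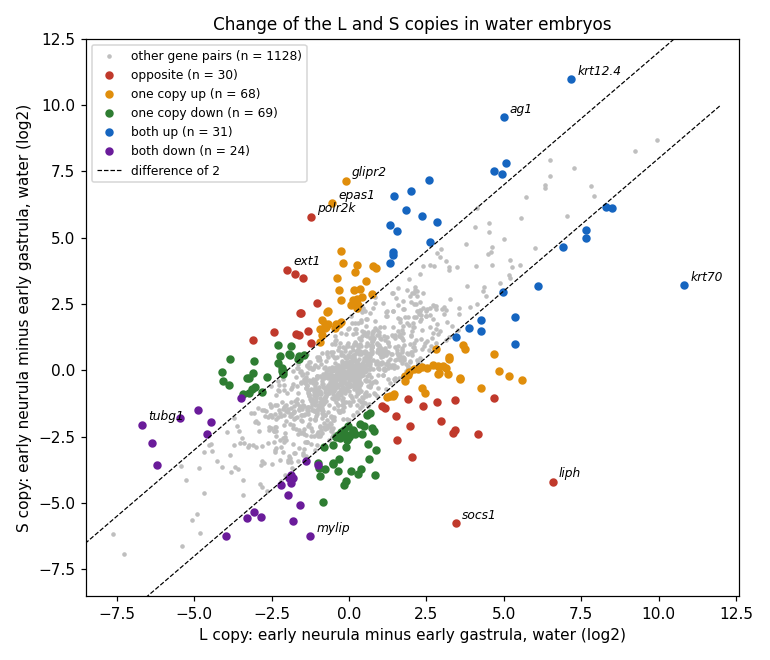
Change of the L copy (horizontal axis) and of the S copy (vertical axis) from early gastrula to early neurula in water embryos, in log2 units, for 1350 genes with 1 probe set a copy. The 222 coloured genes lie 2 or more from equal change (dashed lines at a difference of 2), and the 30 red ones have copies that moved in opposite directions.

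The widest contrast was in liph, a gene of the lipase family. In Gam1 embryos liph.L had early gastrula signals of 2.55, 2.22 and 3.75, late gastrula signals of 7.98, 6.08 and 5.75 and early neurula signals of 8.92, 8.93 and 9.87. In water embryos liph.L had early gastrula signals of 2.66, 3.17 and 3.08, late gastrula signals of 8.59, 7.24 and 6.96 and early neurula signals of 9.56, 9.42 and 9.64. All early neurula arrays of liph.L lay above all early gastrula arrays under either treatment. In Gam1 embryos liph.S had early gastrula signals of 10.30, 10.41 and 6.71, late gastrula signals of 6.28, 6.35 and 3.62 and early neurula signals of 5.18, 5.65 and 2.51. In water embryos liph.S had early gastrula signals of 10.20, 10.55 and 6.38, late gastrula signals of 6.0, 6.79 and 3.66 and early neurula signals of 5.68, 5.97 and 2.87. Here all early neurula arrays lay below the early gastrula arrays, with a spread of several log2 units among the clutches. In Gam1 embryos liph.L rose by 6.40 (SE 0.67, adjusted p = 9.6e-05) and liph.S fell by 4.69 (SE 1.31, adjusted p = 0.014) by limma's moderated test. The copies' changes thus differed by 11.09 ± 1.51 (SE, adjusted p = 0.00033) in Gam1 embryos, and by 10.78 in the water embryos that chose the gene.

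A like crossing was seen in socs1, an inhibitor of cytokine signaling through the JAK-STAT pathway. In Gam1 embryos socs1.L had early gastrula signals of 3.87, 3.91 and 3.79, late gastrula signals of 8.54, 6.42 and 6.87 and early neurula signals of 7.93, 8.60 and 6.10. In water embryos socs1.L had early gastrula signals of 3.56, 3.31 and 3.71, late gastrula signals of 6.41, 5.68 and 7.75 and early neurula signals of 6.36, 6.88 and 7.70. The L copy was higher at early neurula in every clutch. In Gam1 embryos socs1.S had early gastrula signals of 8.47, 10.58 and 8.19, late gastrula signals of 3.42, 3.35 and 3.34 and early neurula signals of 4.62, 5.22 and 3.26. In water embryos socs1.S had early gastrula signals of 8.89, 10.63 and 8.37, late gastrula signals of 3.52, 3.27 and 4.62 and early neurula signals of 3.24, 3.21 and 4.17. The S copy was lower at early neurula in every clutch. A further probe set of socs1.S, whose mean of 3.53 is under the minimum of 5, went the other way. It rose by 2.56 in Gam1 embryos and by 1.56 in water embryos. In Gam1 embryos socs1.L rose by 3.69 (SE 0.73, adjusted p = 0.0028) and socs1.S fell by 4.71 (SE 0.71, adjusted p = 0.00064). In polr2k, a small subunit shared by the nuclear RNA polymerases, the roles of the copies were the other way round. In Gam1 embryos polr2k.S had early gastrula signals of 5.36, 5.04 and 6.98, late gastrula signals of 11.19, 11.29 and 11.30 and early neurula signals of 11.74, 11.97 and 12.05. In water embryos polr2k.S had early gastrula signals of 6.20, 5.13 and 7.23, late gastrula signals of 11.51, 11.63 and 11.40 and early neurula signals of 11.85, 11.89 and 12.19. The S copy of polr2k rose by 6.13 (SE 0.45, adjusted p = 1.8e-05) in Gam1 embryos and the L copy fell by 1.40 (SE 0.37, adjusted p = 0.012).

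The remaining opposite genes with the largest differences were limd2, ext1 and prdx4. For limd2, a LIM domain protein, the L copy rose by 4.17 (SE 0.28, adjusted p = 1.3e-05) and the S copy fell by 2.2 (SE 0.28, adjusted p = 0.00025) in Gam1 embryos, against changes of 4.15 and -2.40 in water embryos. For ext1, a glycosyltransferase that builds heparan sulfate, the S copy rose by 5.93 (SE 0.65, adjusted p = 0.00013) and the L copy fell by 2.27 (SE 0.31, adjusted p = 0.0004) in Gam1 embryos. The water embryos gave 3.79 for ext1.S and -2.0 for ext1.L. A further probe set of ext1.S changed by -2.04 in Gam1 embryos and by -1.99 in water embryos, near the changes of ext1.L. Another changed by 7.07 and 5.87. For prdx4, a peroxiredoxin of the endoplasmic reticulum, the L copy rose by 5.29 (SE 0.27, adjusted p = 4.5e-06) in Gam1 embryos while the S copy fell by 0.77 (SE 0.10, adjusted p = 0.00025). Other genes of this class were nmrk2, a nicotinamide riboside kinase, twsg1, a secreted BMP-binding protein, rdh10, a retinol dehydrogenase that acts in retinoic acid synthesis, rassf7, a Ras-association domain protein, and ccng1, which encodes cyclin G1 and is a known target of p53. In Gam1 embryos both copies of nmrk2 passed, with -0.98 for L and 1.66 for S. In twsg1 only the S copy passed (1.36), with -1.23 for L, and in rdh10 only the L copy (2.84), with -0.95 for S.

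**Figure D2:**
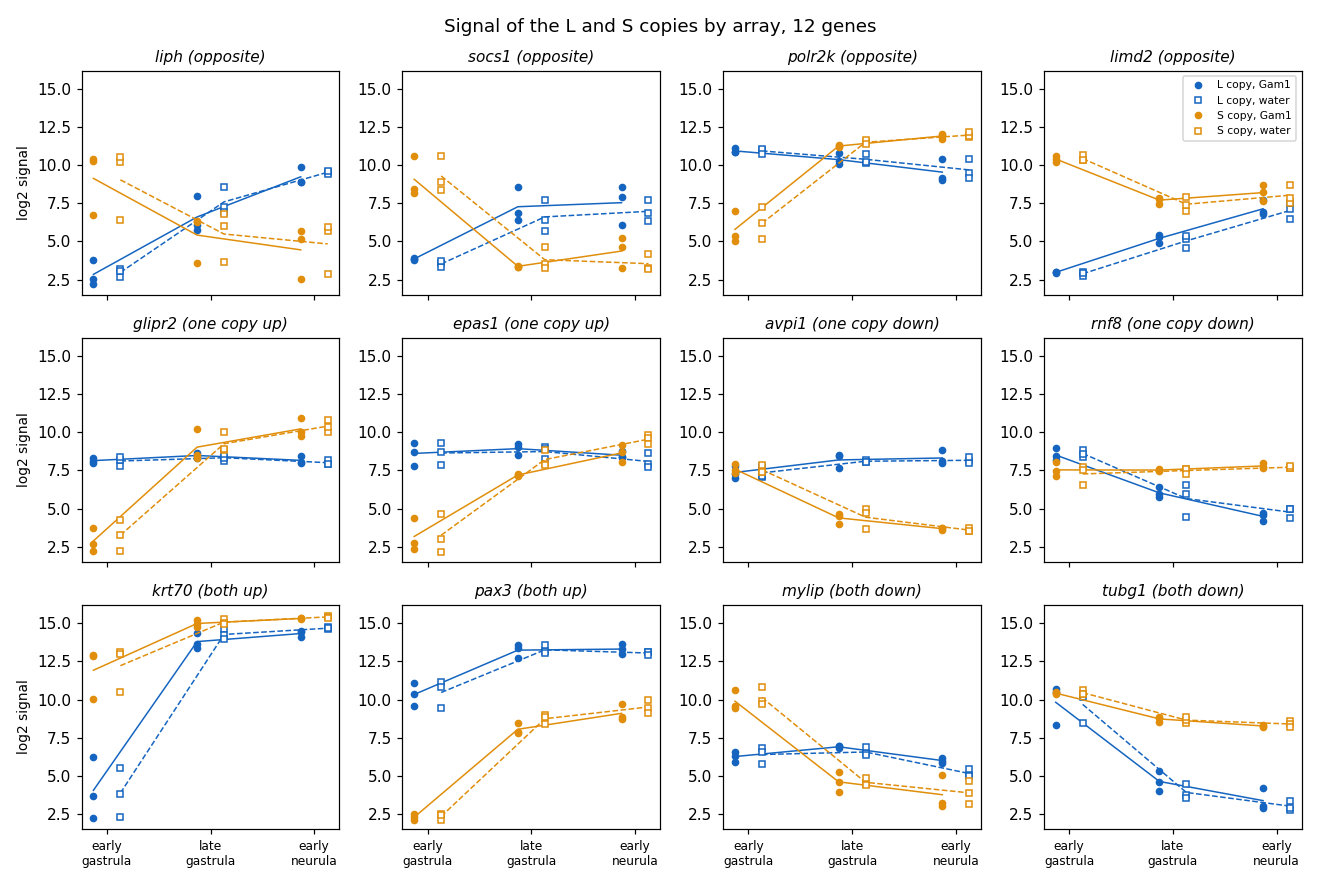
Log2 signal of the L copy (blue) and S copy (orange) of 12 genes at the 3 stages, 1 point per array (filled circles, Gam1 embryos; open squares, water embryos) and lines through the means. Solid and dashed lines of one colour run close together, while blue and orange lines part or cross. Heights of different colours are signals of different probe sets and cannot be compared.

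In the 68 genes where only one copy went up, the other changed by less than 1 log2 unit in water embryos, and the copy that went up was L in 33 and S in 35. The largest difference was in glipr2, which encodes a Golgi-associated protein. In Gam1 embryos glipr2.S had early gastrula signals of 2.68, 2.23 and 3.72, late gastrula signals of 10.21, 8.53 and 8.35 and early neurula signals of 10.92, 9.78 and 10.00. In water embryos glipr2.S had early gastrula signals of 3.26, 2.23 and 4.26, late gastrula signals of 10.02, 8.81 and 8.93 and early neurula signals of 10.81, 10.04 and 10.37. The S copy rose by 7.36 (SE 0.61, adjusted p = 3.1e-05) in Gam1 embryos. Over all stages glipr2.L ranged only from 7.96 to 8.64 in Gam1 embryos and from 7.82 to 8.55 in water embryos, and its change in Gam1 embryos was 0.02. For epas1, the hypoxia-inducible transcription factor HIF-2alpha, the S copy rose by 5.49 (SE 0.54, adjusted p = 7.4e-05) in Gam1 embryos, against a change of 6.30 in water embryos, while epas1.L gave -0.12 in Gam1 embryos and -0.55 in water embryos.

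In 4 more genes of this class the rising copy was L. For actn1, the actin-crosslinking protein alpha-actinin, the L copy rose by 5.22 (SE 0.43, adjusted p = 3.1e-05) in Gam1 embryos and the S copy fell by 0.56 (SE 0.18, adjusted p = 0.028). For higd1a, a mitochondrial inner membrane protein, the L copy rose by 5.31 (SE 0.35, adjusted p = 1.2e-05) and the S copy gave 0.45. For mst1, a secreted protein related to hepatocyte growth factor, the L copy rose by 5.84 (SE 0.61, adjusted p = 9.4e-05) and the S copy gave 0.23. In tfcp2l1, a transcription factor of the grainyhead-related CP2 family, the L copy rose by 4.00 (SE 0.63, adjusted p = 0.00081), and the S copy, whose water change was -0.68, fell by 1.95 (SE 0.28, adjusted p = 0.00047) in Gam1 embryos. By the Gam1 arrays alone tfcp2l1 would thus have stood in the opposite class.

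Transcription factors and signaling genes also stood in this class. For mef2d, a MADS-box factor of muscle and neurons, L rose by 4.22 (SE 0.32, adjusted p = 2e-05) in Gam1 embryos and S gave -0.12. A further probe set of mef2d.L changed by -2.0 in Gam1 embryos and by -0.87 in water embryos, and with the mean of all probe sets of a copy the L minus S difference did not pass (1.23, adjusted p = 0.065, limma). For irx1, an Iroquois homeobox factor of the neural plate, L rose by 4.26 (SE 0.39, adjusted p = 5e-05) and S gave 0.66. In rxrb, a retinoid X receptor, S rose by 4.01 (SE 0.17, adjusted p = 2.7e-06) and L rose by the smaller amount of 0.90. In cdk9, the kinase of the elongation factor P-TEFb, S rose by 1.71 while the change of L was -0.72, and both passed. With the mean of all probe sets of a copy the L minus S difference of cdk9 did not pass (adjusted p = 0.155, limma). The light chain myl9 of non-muscle and smooth muscle myosin gave 2.1 for L and -0.86 for S, again both passing. In gamt, an enzyme of creatine synthesis, S rose by 3.15 with 0.19 for L, which did not pass.

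In the 69 genes where only one copy went down, the copy that went down was S in 41 and L in 28. In avpi1, named for its induction by vasopressin, the S copy held the change. In Gam1 embryos avpi1.S had early gastrula signals of 7.50, 7.91 and 7.35, late gastrula signals of 3.99, 4.51 and 4.67 and early neurula signals of 3.59, 3.71 and 3.74. In water embryos avpi1.S had early gastrula signals of 7.39, 7.86 and 7.39, late gastrula signals of 3.67, 4.95 and 4.68 and early neurula signals of 3.53, 3.69 and 3.54. Its late gastrula arrays were already below all early gastrula arrays under either treatment. The S copy fell by 3.91 (SE 0.24, adjusted p = 1e-05) in Gam1 embryos, and avpi1.L gave a small rise of 0.95. In rnf8, a ubiquitin ligase that acts at DNA double-strand breaks, the falling copy was L. In Gam1 embryos rnf8.L had early gastrula signals of 8.95, 8.16 and 8.44, late gastrula signals of 5.74, 5.93 and 6.43 and early neurula signals of 4.55, 4.21 and 4.71. In water embryos rnf8.L had early gastrula signals of 8.87, 8.41 and 8.57, late gastrula signals of 4.45, 5.95 and 6.57 and early neurula signals of 4.38, 4.95 and 4.98. The L copy fell by 4.03 (SE 0.30, adjusted p = 2e-05), while rnf8.S gave 0.26 and its early neurula and early gastrula arrays overlapped under both treatments.

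The S copy was also the falling one in 5 further named genes. For atp6v1f, a subunit of the vacuolar proton pump, the S copy fell by 3.84 (SE 0.47, adjusted p = 0.00022) in Gam1 embryos and the L copy gave 0.27. The S copy of ubl3, a membrane-anchored ubiquitin-like protein, fell by 4.27 (SE 0.48, adjusted p = 0.00015), against -0.25 for L. For mgat2, an enzyme of N-glycan synthesis in the Golgi, the S copy fell by 3.91 (SE 0.31, adjusted p = 2.5e-05) and the L copy fell by the smaller amount of 0.76. In XB22169453, which the annotation leaves without a gene name, the S copy fell by 3.67 and L gave 0.24. In lmo7, a LIM domain protein of cell junctions, S fell by 4.85 with -0.36 for L.

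Both copies went up in 31 genes, S by more in 17 of them and L in 14. The largest difference was in krt70, a keratin. In Gam1 embryos krt70.L had early gastrula signals of 6.22, 2.22 and 3.68, late gastrula signals of 14.36, 13.64 and 13.41 and early neurula signals of 14.42, 14.10 and 14.47. In water embryos krt70.L had early gastrula signals of 5.5, 2.30 and 3.78, late gastrula signals of 14.63, 14.23 and 13.94 and early neurula signals of 14.75, 14.63 and 14.66. The L copy was thus low at early gastrula and high at both later stages in all clutches. In Gam1 embryos krt70.S had early gastrula signals of 12.84, 10.03 and 12.90, late gastrula signals of 15.25, 14.95 and 14.76 and early neurula signals of 15.32, 15.29 and 15.35. In water embryos krt70.S had early gastrula signals of 13.12, 10.52 and 13.01, late gastrula signals of 15.29, 15.03 and 14.93 and early neurula signals of 15.49, 15.42 and 15.35. Both copies were higher in all early neurula arrays than in any early gastrula array. The L copy rose by 10.29 (SE 0.88, adjusted p = 3.6e-05) in Gam1 embryos and the S copy rose by 3.40 (SE 0.69, adjusted p = 0.0032). The late signals of krt70.S lay near the array maximum of 16.13, and the part of that ceiling in its smaller change was not tested.

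In pax3, a paired-box factor of the neural plate border and neural crest, the S copy had the steeper course. In Gam1 embryos pax3.S had early gastrula signals of 2.27, 2.49 and 2.07, late gastrula signals of 8.49, 7.79 and 7.86 and early neurula signals of 8.85, 8.74 and 9.69. In water embryos pax3.S had early gastrula signals of 2.07, 2.47 and 2.45, late gastrula signals of 9.00, 8.37 and 8.85 and early neurula signals of 9.42, 9.14 and 9.97. The S copy was near the lowest value of the arrays at early gastrula. In Gam1 embryos pax3.L had early gastrula signals of 11.07, 9.59 and 10.33, late gastrula signals of 13.60, 13.38 and 12.72 and early neurula signals of 13.31, 13.64 and 12.98. In water embryos pax3.L had early gastrula signals of 11.13, 9.44 and 10.82, late gastrula signals of 13.18, 13.59 and 13.02 and early neurula signals of 13.13, 13.10 and 12.93. In Gam1 embryos pax3.S rose by 6.81 (SE 0.33, adjusted p = 4e-06) and pax3.L rose by 2.98 (SE 0.39, adjusted p = 0.00032). A change from that floor can only be measured against it. Over the 222 genes, 10 had a copy with a water mean under 3 at early gastrula and none at early neurula.

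The other large differences of this class were in msi1, mdk, ag1 and cd81. In msi1, the RNA-binding protein Musashi of neural progenitors, S rose by 6.54 and L by 1.30 in Gam1 embryos, a difference of -5.24 ± 0.26 (SE, adjusted p = 2.8e-06). In mdk, the heparin-binding growth factor midkine, S rose by 6.82 and L by 2.13. For ag1, a secreted protein of the cement gland, the rises were 9.48 for S and 4.44 for L. The tetraspanin gene cd81 rose by 5.10 in its L copy and by 1.17 in its S copy, and further probe sets of cd81.L rose by 4.92 and 2.775. The keratin krt12.4, an epidermal marker, rose by 10.76 in S and by 7.43 in L, and dlx3, a homeobox factor of epidermis and neural plate border, by 7.90 in L and by 5.87 in S. A further probe set of dlx3.L rose by 5.12 in Gam1 embryos and by 5.27 in water embryos, and with the mean of all probe sets of a copy the L minus S difference of dlx3 turned to -0.23 and did not pass (adjusted p = 0.83, limma).

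Mesodermal regulators were in this class too. For tbxt, the T-box factor Brachyury, the L copy rose by 6.43 (SE 1.24, adjusted p = 0.0024) in Gam1 embryos and the S copy rose by 3.00 (SE 0.92, adjusted p = 0.022). In Gam1 embryos tbxt.S had early gastrula signals of 7.96, 7.06 and 11.15, late gastrula signals of 12.69, 12.67 and 12.79 and early neurula signals of 12.15, 11.85 and 11.16. In water embryos tbxt.S had early gastrula signals of 9.61, 7.30 and 11.45, late gastrula signals of 12.49, 12.52 and 12.75 and early neurula signals of 11.75, 11.63 and 11.01. The early gastrula arrays of tbxt.S spread over several log2 units, and in water embryos they overlapped the early neurula arrays. For myod1, the bHLH factor of skeletal muscle, S rose by 7.58 (SE 0.25, adjusted p = 1.3e-06) and L rose by 4.29 (SE 0.77, adjusted p = 0.0017). In mespa, a bHLH factor of somite formation, L rose by 3.90 and S by 1.79. In szl (sizzled), a secreted inhibitor of the tolloid proteases that cleave Chordin, L rose by 4.42 and S by 1.66. The Wnt receptor fzd10 rose by 7.40 in S and by 5.21 in L, and gli2, a transcription factor of hedgehog signaling, by 4.95 in S and by 1.89 in L. A further probe set of fzd10.S rose by 5.89 in Gam1 embryos and by 6.59 in water embryos. With it the changes of the fzd10 copies differed by 0.68 in Gam1 embryos and by 1.51 in water embryos, less than the rule asks.

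In the 24 genes where both copies went down, mylip, a ubiquitin ligase that acts on lipoprotein receptors, had the largest difference. In Gam1 embryos mylip.S had early gastrula signals of 9.57, 10.64 and 9.45, late gastrula signals of 5.23, 3.96 and 4.61 and early neurula signals of 5.03, 3.01 and 3.22. In water embryos mylip.S had early gastrula signals of 9.87, 10.81 and 9.71, late gastrula signals of 4.45, 4.39 and 4.86 and early neurula signals of 4.65, 3.14 and 3.84. All late gastrula and early neurula arrays of mylip.S lay below all early gastrula arrays. The S copy fell by 6.14 (SE 0.62, adjusted p = 8.5e-05) in Gam1 embryos, whereas mylip.L gave -0.26 there, which did not pass, against -1.25 in water embryos. Next in size were differences in tubg1, cmtm7, anapc7, spdyc and syap1. For tubg1, gamma-tubulin of the centrosome, L fell by 6.45 (SE 0.70, adjusted p = 0.00012) and S fell by 2.16 (SE 0.13, adjusted p = 8.5e-06). For anapc7, a subunit of the anaphase-promoting complex, L fell by 5.75 and S by 1.86. For spdyc, a Speedy/RINGO activator of cyclin-dependent kinases, L fell by 6.11 and S by 2.65. In cmtm7 and syap1 the S copy fell by 5.85 and 5.41, and the L copy by 1.82 and 1.86.

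On the gene lists this class held foxi2, eomes and rnf4. For foxi2, a maternally supplied forkhead activator of the ectoderm, L fell by 7.18 (SE 0.29, adjusted p = 2.2e-06) and S fell by 4.07 (SE 0.31, adjusted p = 2.1e-05) in Gam1 embryos, against changes of -6.20 and -3.57 in water embryos. For eomes, a T-box factor of early mesoderm and endoderm, S fell by 4.34 (SE 0.62, adjusted p = 0.0005) and L fell by 2.19 (SE 0.62, adjusted p = 0.016), against -5.35 and -3.07 in water embryos. For rnf4, a ubiquitin ligase that recognises proteins carrying SUMO chains, S fell by 3.95 (SE 0.30, adjusted p = 2e-05) and L fell by 1.89 (SE 0.37, adjusted p = 0.0027). Both copies of these genes fell, by unequal amounts.

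Set against lists of developmental and cellular genes, 20 of 136 listed genes with both copies measured were among the 222 (14.7%, against 16.4% of all 1350). The mesoderm and organizer list held 5 of 17 (eomes, mespa, myod1, szl and tbxt), the epidermis list 3 of 10 (foxi2, krt12.4 and krt70) and the neural plate and neural crest list 3 of 13 (dlx3, irx1 and pax3). Signaling by FGF, Notch, retinoic acid and hedgehog held 3 of 11 (gli2, rdh10 and rxrb), TGF-beta and BMP signaling 2 of 15 (szl and twsg1) and Wnt signaling 1 of 8 (fzd10). Muscle and heart held 1 of 4 (mef2d), the SUMO pathway 1 of 5 (rnf4), p53 and stress 1 of 7 (ccng1), and ribosomal proteins and translation 1 of 18 (rps12). None of 20 maternal and germ line genes, 9 histone and chromatin genes or 7 endoderm genes was among them. These are counts in small lists, and no difference between lists was tested.

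Whether the copies also parted in Gam1 embryos was tested on arrays whose changes the rule had not used. The Gam1 arrays entered the rule through the mean over 18 arrays that chose the probe sets and set the minimum. They came from the same clutches as the water arrays, and arrays of the same replicate number deviated together. The shares below are therefore not independent of the choice of genes. The L minus S difference was computed on each array, and its early neurula and early gastrula values in Gam1 embryos were compared by limma's moderated test with p-values adjusted by the Benjamini-Hochberg method over all 1350 genes. The difference passed in 211 of the 222 genes (95%), against 53.3% of all genes tested. L had the more positive change in 114 (all genes, 29.1%) and S in 97 (all genes, 24.2%). In all 222 the direction was that of the water embryos, as in 1277 of all 1350, and in 218 it was so in each replicate, as in 1037 of all. With the probe sets and the minimum mean taken from the 9 water arrays alone, a setting chosen after seeing the data, the rule found 220 genes of 1351, 218 of them among the 222, and 209 passed in Gam1 embryos (95%, against 53.3% of all). The size was at least 2 in 193 and at least 1 in all 222, with a median of 2.75 and quartiles of 2.16 and 3.74. The early neurula and early gastrula arrays of Gam1 embryos did not overlap in 212 genes (95.5%), against 59.2% of all genes.

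The 11 genes that did not pass were ccng1, coq9, cuedc1, fhit, grb2, hpgds, map1lc3b, mios, rassf7, sh3bgrl2 and slc7a8. The difference was 1.60 ± 1.45 (SE, adjusted p = 0.39) in fhit, 1.96 ± 0.83 (SE, adjusted p = 0.074) in rassf7 and 3.28 ± 1.35 (SE, adjusted p = 0.067) in ccng1. All 3 had wide spreads among clutches. With the replicate number as a block 219 genes passed, against 68.8% of all genes, and fhit, rassf7 and slc7a8 did not. Single copies were compared in the same way over 23630 probe sets. Of the 444 copies, 169 rose and 163 fell in Gam1 embryos, which together is 74.8%, against 63.8% of all probe sets (28.1% rose and 35.7% fell).

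**Figure D3:**
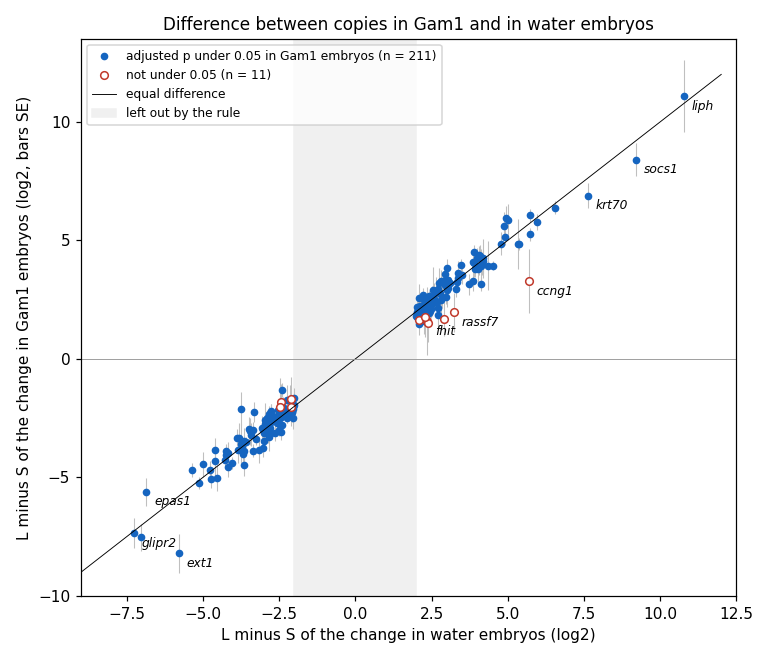
Difference between the L and S copies' changes from early gastrula to early neurula in Gam1 embryos (vertical axis, log2, bars are SE) and in water embryos (horizontal axis), 1 point per gene, n = 222. All points lie on the same side of 0 on both axes, 211 with an adjusted p under 0.05 in Gam1 embryos (filled) and 11 without (open). The grey band was left out by the rule.

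Most of the parting had taken place by late gastrula. In Gam1 embryos the L minus S difference passed between early and late gastrula in 183 genes (82.4%, against 38.4% of all genes), and between late gastrula and early neurula in 27 (12.2%, against 2.37%). By late gastrula the median gene had reached 74.2% of its final difference in Gam1 embryos and 76.5% in water embryos. Over all 1350 genes the shares were 74.3% and 76.2%, so this timing is not particular to the 222. Among the 160 copies that went up by 1 or more in water embryos the median share of the change reached by late gastrula was 77.5% in Gam1 embryos (quartiles 60.8 and 91.1) and 83.2% in water embryos (66.9 and 93.7). Among the 147 that went down it was 68.0% in Gam1 embryos and 72.9% in water embryos. These shares are a description, since the copies were picked by their final change. Single genes departed from the median. In eomes the L copy had made 43.3% of its fall by late gastrula in Gam1 embryos and 43.6% in water embryos, and the S copy 46.2% and 43.8%. In tbxt both copies were higher at late gastrula than at early neurula under both treatments. In mespa the L copy had made 83.3% of its rise by late gastrula in Gam1 embryos and 88.9% in water embryos, against 22.2% and 29.7% for the S copy.

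Gam1 embryos and water embryos were then compared at each stage, first for each copy. At early gastrula and early neurula this uses the water arrays whose changes chose the genes, so no excess over all genes is read from those stages. The late gastrula arrays entered the rule only through the mean over 18 arrays. The effect of Gam1 was small beside the developmental changes. Its median size over the 444 copies was 0.0719 log2 units in early gastrulae, 0.182 in late gastrulae and 0.183 in early neurulae, against 0.0563, 0.137 and 0.141 over the copies of all 1350 genes. No copy passed at any stage after adjustment over all probe sets, and 0% of all 23630 probe sets did. In simulated data without pairing, this test recovered 14%, 26% and 8% of planted changes of 1 log2 unit over the 3 stages in order. For planted changes of 2 the shares were 52%, 50% and 66%. The lack of calls thus says little about effects of such sizes. At an unadjusted p under 0.05 there were 2, 28 and 31 copies (0.45%, 6.31% and 6.98%), against 0.626%, 4.39% and 6.66% of all probe sets. At late gastrula 23 of the 28 (5.18% of the copies) were lower in Gam1 embryos, against 2.42% of all probe sets. With tests limited to probe sets whose mean reached 6, ccng1.L passed at late gastrula and ext1.S at early neurula (adjusted p = 0.011 and 0.012, limma).

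The size of these effects was greatest in ccng1, with 2.93 for S and 2.54 for L at late gastrula. At late gastrula ccng1.L had 13.88, 13.19 and 13.61 in Gam1 embryos, against 10.99, 10.95 and 11.11 in water embryos. At the same stage ccng1.S had 10.86, 9.47 and 9.57 in Gam1 embryos, against 7.43, 7.24 and 6.44 in water embryos. The Gam1 and water arrays did not overlap for either copy at late gastrula or early neurula. At early neurula ccng1.L had 13.90, 13.31 and 13.53 in Gam1 embryos, against 12.18, 11.28 and 11.51 in water embryos, and ccng1.S had 11.29, 10.00 and 10.38 in Gam1 embryos, against 9.17, 7.61 and 7.24 in water embryos. By the chosen probe sets, both copies were thus higher in all Gam1 arrays at both later stages. The unpaired test of limma gave an adjusted p of 0.16 for ccng1.L and 0.5 for ccng1.S at late gastrula, which does not pass. Further probe sets of ccng1.S changed from early gastrula to early neurula by -0.24 and 3.41 in Gam1 embryos. In water embryos they changed by -2.58 and 2.25, where ccng1.L changed by 3.44. With the replicate number as a block, neither copy passed in a fit of the late gastrula arrays alone (adjusted p = 0.22 for both, limma). In a fit of all 18 arrays with each stage's replicate number as a block, chosen after seeing the data, both did at late gastrula (adjusted p = 0.023 for ccng1.L and 0.0026 for ccng1.S) and at early neurula (0.039 and 0.0022). That fit called 1, 28 and 41 of the 444 copies over the 3 stages in order (0.225%, 6.31% and 9.23%), against 0.161%, 3.85% and 8% of all probe sets. The fit of each stage alone with the replicate number as a block called 0 of the 444 copies at every stage, and 0% of all 23630 probe sets.

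Whether Gam1 acted unequally on the L and S copies was tested as the L minus S difference of the Gam1 effect. The unpaired test called no gene at any stage, among the 222 or among all 1350 (0%), with 0, 11 and 15 of the 222 at an unadjusted p under 0.05 over the 3 stages in order, against 0%, 2.52% and 3.7% of all genes. In simulated data without pairing it recovered 38%, 52% and 54% of planted differences of 1 log2 unit. Arrays of the same replicate number deviated together, and with that number as a block within each stage the test called 1, 11 and 21 of the 222 (0.45%, 4.95% and 9.46%), against 0.0741%, 1.78% and 4.67% of all genes. At early gastrula and early neurula the effect is taken against the water arrays whose L minus S changes chose the genes, so nothing is read from the shares at those stages, and p-values there are of genes chosen in part on the same arrays. The fit of all 18 arrays with a block within each stage called 0, 21 and 24 of the 222, against 0%, 4.07% and 5.41% of all genes. Both paired fits called 0, 9 and 14 of the 222. This overlap was not counted over all genes, so no excess is read from it. The values that follow are from the paired test within each stage, and none passes in the main unpaired test. An unpaired fit without a trend of the spread with signal called 1 gene of the 222 at early neurula. The smallest adjusted p of the main unpaired test among the 222 was 0.879 at late gastrula, in rassf7, and 0.0894 at early neurula, in ext1.

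In ext1 the chosen probe set of the S copy was higher in all Gam1 arrays at both later stages. Of 2 further probe sets of ext1.S with a mean of at least 5, 1 had nearly the same course under both treatments. It changed by -1.99 from early gastrula to early neurula in water embryos and by -2.04 in Gam1 embryos. The other changed by 5.87 and 7.07. At early neurula ext1.S had 11.22, 11.27 and 11.16 in Gam1 embryos, against 9.34, 9.59 and 9.35 in water embryos. At the same stage ext1.L had 4.67, 5.22 and 4.82 in Gam1 embryos, against 5.21, 5.29 and 4.86 in water embryos. The S arrays did not overlap between treatments and the L arrays did, and the L minus S difference of the Gam1 effect was -2.01 (SE 0.19, adjusted p = 0.00016). In rassf7 the S copy was the one that was higher in Gam1 embryos. At late gastrula rassf7.S had 8.48, 8.27 and 8.78 in Gam1 embryos, against 7.23, 6.81 and 8.11 in water embryos, while rassf7.L had 10.09, 10.05 and 10.32 in Gam1 embryos, against 9.84, 10.00 and 10.65 in water embryos. The L minus S difference was -1.14 (SE 0.13, adjusted p = 0.013) at late gastrula and -1.17 (SE 0.14, adjusted p = 0.00098) at early neurula. In p2ry11, a purine receptor, the L copy was lower by 0.72 and the S copy higher by 0.23 in Gam1 embryos at late gastrula, a difference of -0.95 (SE 0.12, adjusted p = 0.025). It was -0.73 (SE 0.10, adjusted p = 0.0023) at early neurula, where the fit of all arrays did not call it (adjusted p = 0.086, limma).

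Genes of signaling and the neural plate were among those called. In cd81 the chosen probe set of the L copy, the copy that rises more in development, was the lower in Gam1 embryos. Further probe sets of cd81.L rose by 5.97 and 1.49 in water embryos, where the S copy rose by 1.005. In Gam1 embryos they rose by 4.92 and 2.775. At late gastrula cd81.L had 7.36, 7.44 and 3.02 in Gam1 embryos, against 8.47, 8.55 and 5.2 in water embryos, and cd81.S had 10.05, 10.34 and 9.90 in Gam1 embryos, against 10.16, 10.41 and 10.11 in water embryos. The L minus S difference was -1.34 (SE 0.21, adjusted p = 0.037). In szl it was -0.64 (SE 0.12, adjusted p = 0.047) at late gastrula, with Gam1 minus water values of -0.84 for L and -0.20 for S. In pax3 it was 0.66 (SE 0.11, adjusted p = 0.045) at late gastrula and 0.68 (SE 0.11, adjusted p = 0.0058) at early neurula, with late gastrula values of -0.03 for L and -0.69 for S. In epas1 it was 1.31 (SE 0.20, adjusted p = 0.005) at early neurula, where epas1.L gave 0.41 and epas1.S -0.90. In these genes, by the chosen probe sets, the copy with the larger rise in water embryos was the lower one in Gam1 embryos, relative to its partner.

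In higd1a the S copy, with a change of -0.21 in water embryos, was higher in Gam1 embryos by 0.64 at early neurula, with -0.09 for L and a difference of -0.73 (SE 0.12, adjusted p = 0.0069). In gamt the S copy was lower by 0.51 at late gastrula and L gave 0.08, a difference of 0.59 (SE 0.08, adjusted p = 0.03). At early gastrula the one gene called was ccng1, with 1.77 (SE 0.24, adjusted p = 0.00052), and the paired fit of all arrays did not call it (adjusted p = 0.09, limma). In gli2 the S copy was lower by 2.21 in Gam1 embryos at late gastrula, but the L minus S difference of 1.62 passed neither the unpaired test (adjusted p = 1) nor the paired one within the stage (adjusted p = 0.057, limma), while it passed in the paired fit of all arrays (adjusted p = 0.0081). No gene among the 222 passed an unpaired test of whether the L minus S Gam1 effect differed between stages. The paired result of that test is not given here.

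Over the whole set the copies tended to differ less in Gam1 embryos at late gastrula, a stage whose arrays entered the rule only through the mean over 18 arrays. The Gam1 effect was the more negative on the copy with the more positive water course in 163 of the 222 genes (73.4%), against 62.4% of all 1350. In 89 genes (40.1%) this held in all 3 replicate pairs, against 29.3% of all. The effect ran the other way in all 3 in 18 genes, as it did in 186 of all 1350. The median Gam1 effect on the copies' difference, signed so that a negative value means a smaller difference in Gam1 embryos, was -0.309, -0.104 and -0.0809 log2 units in replicates 1, 2 and 3. All 11 genes called at late gastrula with pairing ran this way, against 15 of the 24 called among all genes, which include those 11. At early neurula 18 of the 21 called ran this way, against 41 of the 63 called among all genes, with cdo1, ext1 and tfcp2l1 the other way, but the water arrays of that stage helped to choose the genes for a wide difference, so this count is tilted towards a smaller difference in Gam1 embryos and no support is drawn from it. The late gastrula counts were made after the pattern was seen and are a description. Water arrays of late gastrula and early neurula with the same replicate number deviated together (correlations of 0.529 to 0.76). A like tilt at late gastrula was not tested, so no support is drawn from these counts either. The effects were small in size, since the median difference reached by late gastrula was 1.97 in Gam1 embryos and 2.14 in water embryos.

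**Figure D4:**
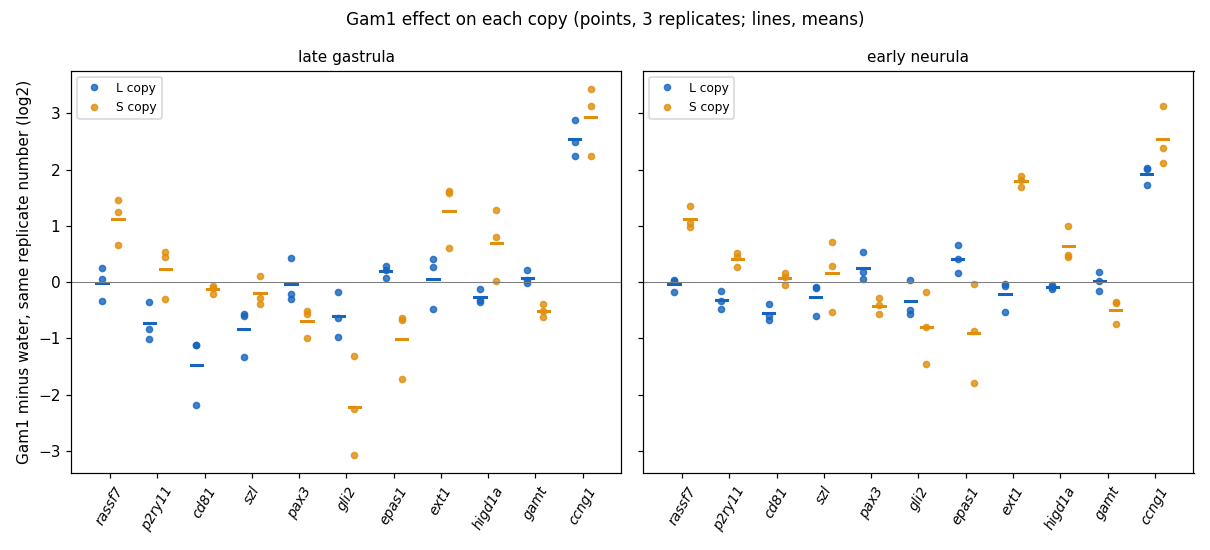
Gam1 minus water log2 signal of the L copy (blue) and S copy (orange) of 11 genes at late gastrula and early neurula. Each point is 1 pair of arrays with the same replicate number and each line the mean of 3 pairs. By the chosen probe sets, both copies of ccng1 lie above 0 in every pair, while in ext1 and rassf7 only the S copy does at both stages.

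Some copies had more than 1 probe set, which gives a view of how far a copy's course depends on the probe set that stands for it. Of the 222 genes, 63 had a further probe set with a mean of at least 5 for 71 of their copies. These 93 probe sets shared the sign of the chosen probe set's water change in 72 cases, and in 69 (74.2%) their change was nearer to it than to the change of the other copy. Over all combinations of an L and an S probe set in water embryos, 34 of the 63 genes kept a difference of 2 or more, and 44 kept 1 or more. In 49 the direction was kept by any amount, and 14 had a combination that ran the other way. Among the 49, the lowest differences were 0.0035 in anapc15 and 0.018 in ext1. In Gam1 embryos the counts were 26, 42, 48 and 15. Of the 14, 7 ran the other way by 1 or more in water embryos, and 10 of the 15 did so in Gam1 embryos. The 14 were dlx3, fbxl5, ivns1abp, lman2l, mef2d, mknk2, nemp1, pax3, ppara, ppig, rangap1, rassf7, slc25a28 and stag2.

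Further probe sets gave changes close to the chosen one in several genes with large differences. In actn1.L the further probe set changed by 5.29 in water embryos, where the chosen one gave 5.58. In ag1.S the values were 9.23 and 9.54, and in rnf8.L they were -3.09 and -3.83 beside -3.85. In others the probe sets of one copy disagreed. Further probe sets of ext1.S gave -1.99 and 5.87 beside the chosen 3.79, and those of ccng1.S gave -2.58 and 2.25 beside -2.25. In pax3.L they gave 5.39, 7.85 and 4.19 where the chosen one gave 2.59, so that with one of them the L copy rose more than the S copy in water embryos.

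Such differences within a copy were counted over the whole table. Among 1555 copies of any gene with a further probe set, the water changes of the 2 probe sets differed by 2 or more in 9.39%, as against 16.4% for the L and S copies of the 1350 genes. Among the 71 copies of the 222 genes it was 28.2% in Gam1 embryos and 26.8% in water embryos. Probe sets named for 1 copy thus parted by as much as the rule asks in some genes, and for genes with 1 probe set a copy this was not tested. Probe sets whose names mark possible binding to several transcripts made up 2.93% of the 444, against 4.96% in all 1350 genes. Names ending in _a_at, a separate mark, made up 7.66% of the 444, against 6.33%. In 176 genes (79.3%) both probe sets carried neither mark, against 79.4%.

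**Figure D5:**
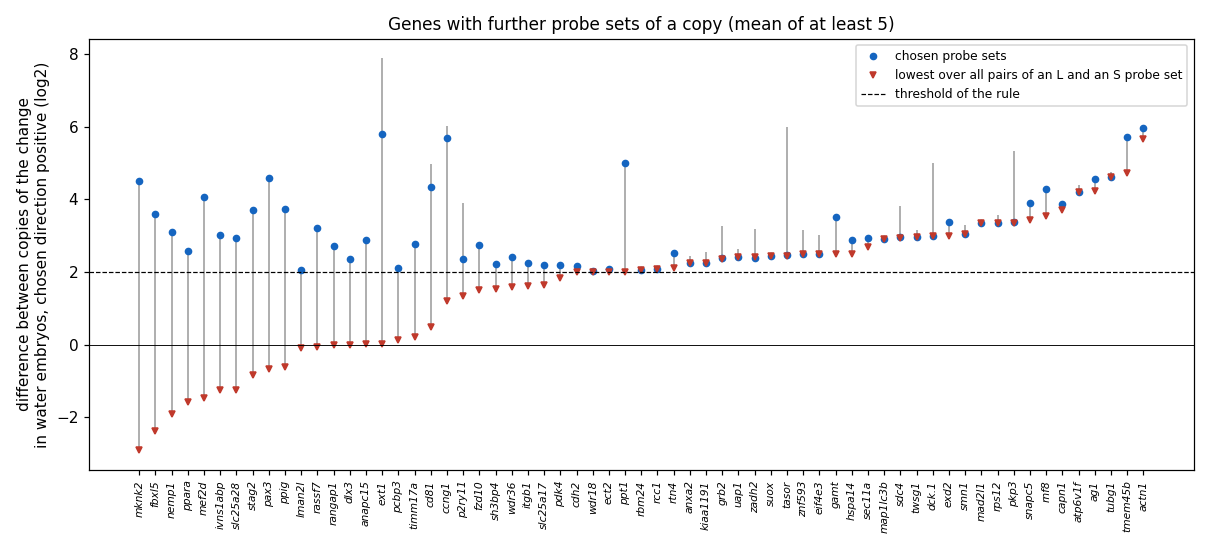
Difference between the copies' changes in water embryos (vertical axis, log2, turned so that the chosen direction is positive) for the 63 genes with further probe sets. Blue points are the chosen probe sets, red triangles the lowest value over all combinations of an L and an S probe set, and grey lines the full range. In 34 genes the whole range lies at or above the dashed threshold of 2, and in 14 the lowest value is below 0.

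The genes lay on all chromosomes. By the RefSeq table all had their L copy on an L chromosome and their S copy on the S chromosome of the same number, as did all 1350. The share of genes in the set ran between 14.0% on chromosome 8 and 21.5% on chromosome 6, and no difference between chromosomes was tested. The clutches deviated from their group means in a like manner under both treatments. At late gastrula the copies that rise in development had median deviations of 0.168, -0.0206 and -0.149 from the group mean in replicates 1, 2 and 3 of Gam1 embryos, and of 0.211, -0.0391 and -0.155 in water embryos. Falling copies deviated the other way, by -0.158, 0.0827 and 0.136 in Gam1 embryos and by -0.325, 0.13 and 0.228 in water embryos. At late gastrula the clutches thus had the same order in both treatments.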

How the data were processed

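Total RNA of whole Xenopus laevis embryos was hybridised to Affymetrix X. laevis 2.0 arrays, 3 for each of 6 groups (Gam1 or water at 3 stages). The deposited values are log2 signals. Per the methods, the authors read the scanner files with Bioconductor and applied quantile normalization. The background correction and probe summary they used are not given in the sources used here. Arrays give no counts, and their number limits the precision. Of 23701 probe sets, 71 controls were left out, and of the 23630 tested, 12258 carried 1 gene symbol in the platform annotation, 228 several and 11144 none. Of those with 1 symbol, 11878 were named as an L or S copy.

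L minus S differences of 1350 genes, and 23630 probe sets, were tested with limma 3.58.1 in R 4.3.3 (moderated test, spread following signal), with Benjamini-Hochberg adjustment at 0.05. Summaries used Python 3.11.15 and pandas 2.3.3, and the fits were tested on simulated data. Gam1 and water arrays of the same replicate number deviated together (correlations of 0.904 to 0.941 at early gastrula, 0.765 to 0.81 at late gastrula and 0.686 to 0.808 at early neurula). The methods also tie replicates to clutches, so the numbers mark pairs. For different numbers the correlations were -0.62 to -0.233. Deviations from a mean of 3 arrays cancel out, so these negative values follow from the positive ones and add nothing to them. The unpaired fit was the main one, and the replicate number as a block an alternative. Other alternatives changed the minimum mean, the threshold, the probe sets of a copy, centring, the trend, the test and the arrays left in.

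The genes named were the 6 largest differences in each class, those with the smallest p for Gam1 effects (8 genes at late gastrula and 4 at each other stage for the difference between copies, 4 probe sets a stage for single copies), all members of the gene lists of development, signaling, maternal and SUMO genes, and 3 genes on each side of the threshold. Further names (such as fhit, and genes whose probe sets disagreed) were chosen after their values were seen. The members, lists and tests were chosen with earlier results of these data known.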

Additional observations from a re-analysis of the deposited data

How the results depend on the processing

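The rule found 141 genes with a minimum mean of 7, 358 with a difference of at least 1.5 and 90 with at least 3. Leaving out replicate 1, 2 or 3 gave 219, 222 and 229 genes, of which 204, 202 and 203 were among the 222. Taking the mean of all probe sets of a copy gave 210 of 1328 genes, 191 of them among the 222. Without _s_at, _x_at or _a_at probe sets the rule found 197 of 1175 genes, 186 of them among the 222. With the probe sets and minimum mean from the water arrays alone, chosen after seeing the data, it found 220. In Gam1 embryos 205 to 212 genes passed when 1 Gam1 array was left out. All arrays gave 211, against 53.3% of all genes, and the share of all genes without 1 array is not given here. With the replicate number as a block within each stage, copies differed in Gam1 effect in 1, 11 and 21 genes over the 3 stages in order, and the cause of the gain over the unpaired test was not tested beyond the paired deviations of the arrays. In a fit of all stages chosen after seeing the data, with each stage's replicate number as a block, copies did so in 0, 21 and 24 genes (against 0%, 4.07% and 5.41% of all genes), and they did in 1 at early neurula without a trend of the spread or with 1 block over all stages. The fit of all stages with each stage's replicate number as a block also called 1, 28 and 41 single copies (0.225%, 6.31% and 9.23%, against 0.161%, 3.85% and 8% of all probe sets), and a minimum mean of 6 called 1 at late gastrula and 1 at early neurula. A block in a fit of each stage alone called 0 single copies at every stage, and 0% of all probe sets. Leaving out 1 array gave 0 for each count of Gam1 effects in the unpaired test, and the paired calls were not tested in this way. With the mean of all probe sets of a copy, the L minus S change of dlx3 in Gam1 embryos was -0.23 instead of 2.03 (adjusted p = 0.83, limma). It also lost its call when 1 of several Gam1 arrays was left out (early gastrula replicate 1 or 3, or any early neurula replicate, with values of 1.37 to 2.16), as did twsg1 without early gastrula replicate 3 or early neurula replicate 1 (-2.13 and -2.18, against -2.59). With the same averaging the differences of cdk9 and mef2d did not pass (adjusted p = 0.155 and 0.0653, limma). Those of rassf7 and ccng1, which did not pass with all arrays, passed without early gastrula replicate 3 (2.81 and 4.50, against 1.96 and 3.28), and ccng1 also without early gastrula replicate 2 (1.31). Changes of single copies in Gam1 embryos that lost their call without 1 Gam1 array were those of eomes.L (early gastrula replicate 1 or early neurula replicate 3, -1.97 and -1.82, against -2.19), liph.S (early gastrula replicate 1 or 2, -4.11 and -4.05, against -4.69), tbxt.S (early gastrula or early neurula replicate 1 or 2, 2.17 to 2.93, against 3.00), mespa.S (early gastrula replicate 1, early neurula replicate 2 or 3, 1.56 to 1.81, against 1.79) and actn1.S (early gastrula or early neurula replicate 1 or 2, -0.43 to -0.59, against -0.56). The small changes of avpi1.L and myl9.S lost theirs without most single Gam1 arrays. Those of rassf7.L, ift20.S, lmo7.L and ubl3.L passed only without 1 array (early gastrula replicate 3, early gastrula replicate 2, early gastrula replicate 3 and early neurula replicate 3, with values of 2.13, 1.22, -0.47 and -0.36). The arrays give no count, so signals near the floor of 2.07 limit what low copies can show.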
